A study of Mus musculus with 2 samples.

Results

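The kinesin genes described here are the 38 protein-coding genes whose symbol is Kif followed by a number and at most 1 letter, out of 43346 annotated genes and 21473 protein-coding symbols in each library. They were chosen by name and not by level. By known role, 11 were set apart as mitotic kinesins and 13 as transport kinesins, while 6 act in cilia or Hedgehog signalling, 4 regulate microtubule growth and shortening, and 4 were put in no class. Total RNA longer than 200 nt was sequenced from whole liver of healthy B6NCrl mouse embryos of embryonic day 13.5, male and female embryos pooled, with 10 ng of RNA and added spike-in RNAs per library. The 2 biological replicates form 1 group, share 1 donor entry, and no introduced allele or treatment is named in the labels. No p-value is therefore given, and an SD over these samples (n = 2) covers no more than how far they lay apart.

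Kinesins are motors that bind microtubules and turn the energy of ATP hydrolysis into movement or into the removal of tubulin from microtubule ends. The mitotic members build the spindle, move chromosomes and form the midzone on which dividing cells separate. The transport members carry vesicles, organelles, RNA and protein complexes along the tracks of non-dividing and dividing cells alike, and several of them are known chiefly from axons and dendrites. The fetal liver at this stage is the main site of blood formation, and it holds dividing red cell precursors together with hepatoblasts, the precursors of hepatocytes and bile duct cells.

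Gene counts summed to 39182457 in replicate 1 and 37432977 in replicate 2, and the kinesins held 56097 and 59635 of them. All 6 hepatoblast markers and all 6 erythroid markers exceeded 1 TPM (the abundance corrected for transcript length and library size) in both libraries, with median levels of 1743 and 1915 TPM for hepatoblasts and 508 and 554 TPM for erythroid cells. All 7 cardiac markers were higher in replicate 2, where their TPM summed to 103.8, against 37.43 in replicate 1. Counts differed between the libraries by more than sampling noise, with a chi-square per degree of freedom of 21.2 over 17523 genes and 15.3 over 36 kinesins. In whole tissue, fewer cells of a type and less RNA per cell cannot be told apart.

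Promoter sequences are shown first because a short element was found in those of most mitotic kinesins. The cell cycle homology region, CHR, is a 6-letter element of many promoters active in late cell cycle phases and is bound by LIN54 of the DREAM and MuvB complexes. It was searched as TTTGAA or TTTAAA on both strands, so that TTTGAA reads TTCAAA on the other strand and TTTAAA reads the same. The sequences below run 5′ to 3′ from 70 bases before to 30 bases after the transcription start of the RefSeq annotation (build GRCm38.p6), with every CHR match in capitals. The first 6 belong to mitotic kinesins and the last 2 to transport kinesins, at chr19:37376312-37376411 (plus strand), chr7:127042391-127042490 (minus), chr9:61946770-61946869 (minus), chrX:100625995-100626094 (plus), chr19:34922288-34922387 (plus), chr2:109280668-109280767 (plus), chr2:153291346-153291445 (plus) and chr13:46929689-46929788 (minus).
Kif11: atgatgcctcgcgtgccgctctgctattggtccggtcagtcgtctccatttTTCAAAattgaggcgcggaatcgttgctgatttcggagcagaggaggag
Kif22: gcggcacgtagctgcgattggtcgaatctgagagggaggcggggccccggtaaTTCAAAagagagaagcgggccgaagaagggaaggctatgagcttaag
Kif23: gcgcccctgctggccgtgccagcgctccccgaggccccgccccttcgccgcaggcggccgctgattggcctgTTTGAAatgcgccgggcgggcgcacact
Kif4: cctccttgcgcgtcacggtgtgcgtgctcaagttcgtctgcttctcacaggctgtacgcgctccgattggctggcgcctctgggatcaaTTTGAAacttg
Kif20b: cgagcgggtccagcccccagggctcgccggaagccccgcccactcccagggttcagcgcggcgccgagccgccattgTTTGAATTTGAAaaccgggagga
Kif18a: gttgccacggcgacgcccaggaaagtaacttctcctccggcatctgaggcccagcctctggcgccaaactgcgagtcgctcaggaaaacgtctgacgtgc
Kif3b: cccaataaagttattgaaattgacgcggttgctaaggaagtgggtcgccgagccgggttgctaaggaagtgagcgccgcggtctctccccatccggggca
Kif13a: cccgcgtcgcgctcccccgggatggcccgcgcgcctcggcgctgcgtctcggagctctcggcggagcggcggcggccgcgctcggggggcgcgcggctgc

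RefSeq promoter windows, from 250 bases before to 50 bases after a start, were matched for 31 of the 38 kinesins. Kif20a, Kif5b, Kif5a, Kif13b, Kif19a, Kif21b and Kif28 were not matched. A CHR match stood in a window of 9 of 10 mitotic kinesins, 1 of 10 transport kinesins, 1 of 5 cilia and Hedgehog kinesins, 0 of 3 microtubule dynamics kinesins and 1 of 3 kinesins without a class. Among all 27025 genes of the table, 30.6% held one. Within the printed stretch, from 70 bases before to 30 bases after the start, the match was present in 8 of 10 mitotic kinesins and 1 of 10 transport kinesins, and in 10.1% of all genes.

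The position of the match varied among the mitotic genes. In Kif11 its first base lay at -19 and in Kif22 at -17, counted from the start as 1, whereas it lay at 3 in Kif23, at 4 in Kif18b and at 20 in Kif4. Kif20b held 2 adjacent copies, at 8 and 14. Kif15 had a match at -19 and Kif14 at -42, and each had another farther upstream, at -234 and -228. Kif2c had matches at -234 and -103, outside the printed stretch, and Kif18a had none in its window. The single transport match, in Kif1a at -44, stood at another than the first listed start of that gene, and with the first listed start alone 0 of 10 transport kinesins held one. Windows with a match in Kif2c, Kif14, Kif4, Kif27 and Kif1a lay wholly inside the GENCODE span of the gene. For Kif2c (minus strand) the lowest window base was 117178723, where the gene begins at 117182639. For Kif14 (plus strand) it was 136467598, where the gene begins at 136466343. Whether such windows are the promoters of the measured transcripts was not tested.

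The CCAAT box, the site of the factor NF-Y, was searched as CCAAT or ATTGG and stood in 6 of 10 mitotic kinesins, 3 of 10 transport kinesins and 41.1% of all genes. In Kif11, Kif22, Kif23 and Kif4 the letters ATTGG preceded the CHR match, at -45, -54, -7 and -5, without overlapping it. An E2F site, searched as TTCCCGC or TTGGCGC on both strands, was found in 2 of 10 mitotic kinesins, in Kif18a at -10 and Kif15 at -27, in 0 of 10 transport kinesins and in 7.79% of all genes. These matches are counts of letters in the reference and not measurements of binding, and the motifs were searched with the mitotic and transport classes already set.

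**Figure D1:**
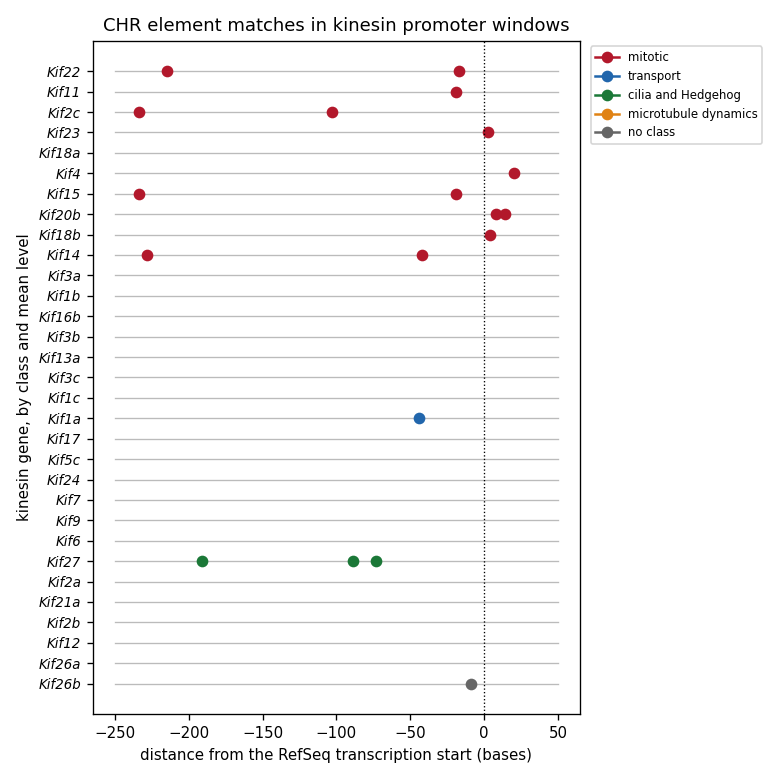
Each line is the promoter window of 1 of the 31 matched kinesins, drawn as distance in bases from the RefSeq transcription start (dotted line), and each point is the first base of a CHR match in any listed start, coloured by class. Points lie on 9 of the 10 mitotic lines and on 1 of the 10 transport lines.

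Mitotic kinesin transcripts were present throughout the class. All 11 mitotic genes exceeded 1 TPM in both libraries, as did 6 of 13 transport genes, 1 of 6 cilia and Hedgehog genes, 2 of 4 microtubule dynamics genes and 1 of 4 genes without a class. Over the family this made 21 of 38 genes, or 55.3%, beside 52.1% of all protein-coding genes, so that the family as a whole lay near the background. At 10 TPM or more in both libraries were 9 mitotic, 2 transport and 1 microtubule dynamics gene, 12 in all, where the background was 27.9% of protein-coding genes. The median mitotic gene reached 23.54 and 31.21 TPM in replicates 1 and 2, and the median transport gene 0.89 and 1.05 TPM. The median of all protein-coding genes was 1.37 and 1.51 TPM.

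On the log2(TPM + 0.1) scale the mitotic median lay above the transport median by 4.58 in replicate 1 and 4.77 in replicate 2, a mean difference of 4.67 ± 0.13 (SD, n = 2), which is 25.5-fold. The difference was far larger than the spread between the libraries. The classes nevertheless overlapped gene by gene. In each library 3 transport genes, Kif5b, Kif3a and Kif1b, stood above the lowest mitotic gene, and Kif5b stood above 9 of the 11 mitotic genes in replicate 1 and 8 in replicate 2. With counts divided by the length of the longest coding transcript, 2 transport genes, Kif5b and Kif3a, stood above the lowest mitotic gene in each library, and Kif5b stood above 6 mitotic genes in replicate 1 and 5 in replicate 2. The gap between medians was 3.62 when transport was limited to the 8 members known from many cell types, and 3.84 with a pseudocount of 1.

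**Figure D2:**
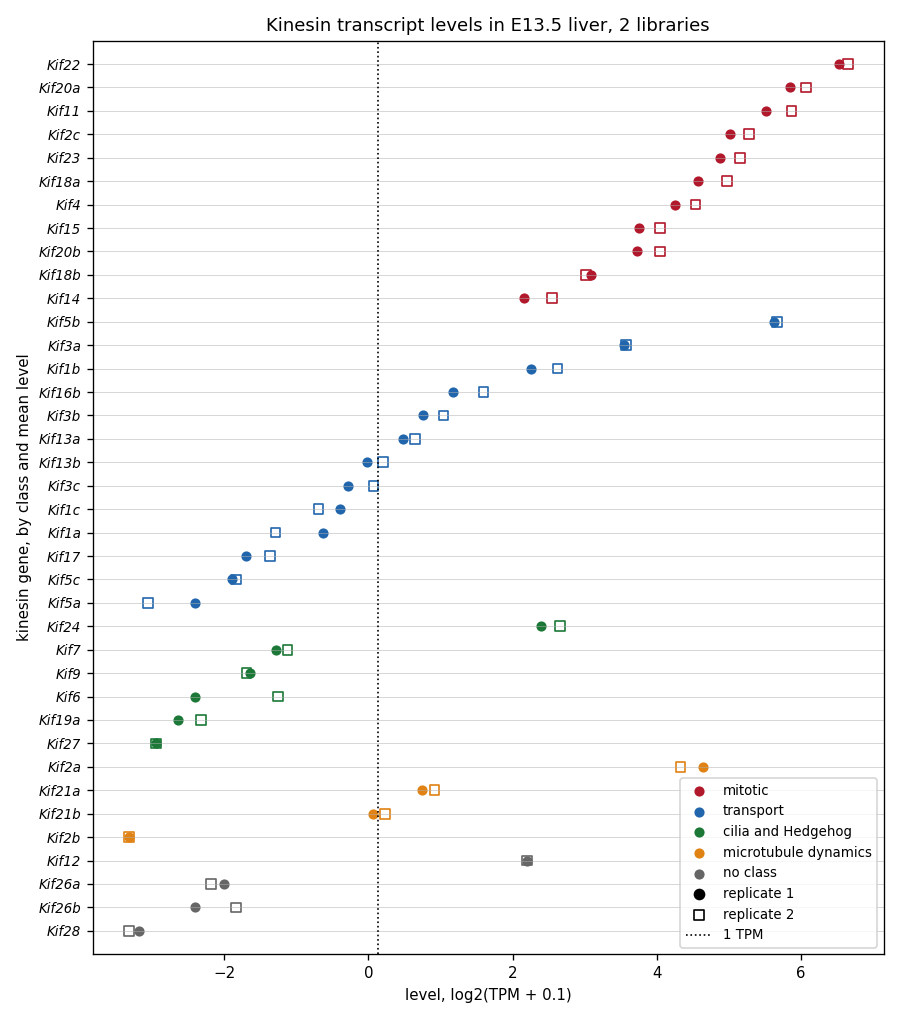
Levels of all 38 kinesins as log2(TPM + 0.1), 1 row per gene, ordered by class and then by mean level; filled circles are replicate 1, open squares replicate 2, and the dotted line is 1 TPM. All 11 mitotic genes lie to the right of the line in both libraries, while the 13 transport genes run from Kif5b at 49.31 and 50.68 TPM down to Kif5a at 0.09 and 0.02 TPM.

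Added together, mitotic kinesins made up most of the family's transcripts. They summed to 338.06 TPM in replicate 1 and 400.21 TPM in replicate 2, and transport kinesins to 73.83 and 78.2 TPM. These sums were 76.6% ± 2.01 and 15.8% ± 0.830 of all kinesin TPM (SD, n = 2 each). By expected counts, which are not corrected for length, the shares were 77.0% ± 1.21 for mitotic and 16.7% ± 0.704 for transport kinesins. The microtubule dynamics genes held 27.46 and 22.86 TPM, the cilia and Hedgehog genes 5.85 and 7.23 TPM, and the genes without a class 4.74 and 4.78 TPM. All 38 kinesins together came to 449.94 and 513.28 TPM.

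**Figure D3:**
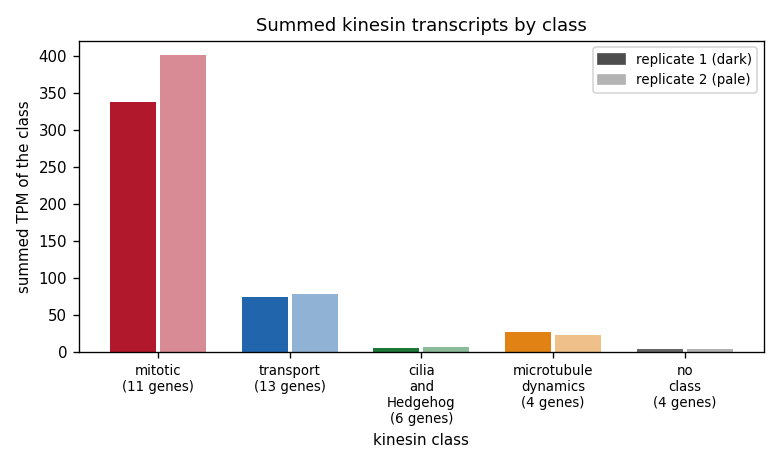
Summed TPM of each kinesin class, with a dark bar for replicate 1 and a pale bar for replicate 2. The mitotic bars, at 338.06 and 400.21 TPM, stand above the other classes in both libraries, and the transport bars at 73.83 and 78.2 TPM come next.

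Among the mitotic motors of chromosomes and the spindle, levels ran widely. Kif22 (chromosome 7, 127027729 to 127042471, GRCm38), the chromokinesin Kid that pushes chromosome arms away from the poles, had 92.11 TPM in replicate 1 and 100.12 TPM in replicate 2, from 6851 and 6687 counts. It was the highest kinesin in both libraries and made up 27.2% and 25.0% of mitotic kinesin TPM. Kif11 (chromosome 19, 37376403 to 37421859), the tetrameric motor Eg5 that slides spindle poles apart, had 45.39 and 58.21 TPM. By counts, 8114 and 9343, Kif11 ranked first, its transcript of 4819 nt being longer than the 2063 nt of Kif22.

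Kif15, which can share the work of Kif11 in keeping poles apart, stood at 13.43 and 16.34 TPM. Kif2c, the microtubule depolymerase MCAK that corrects attachments at centromeres, had 32.23 and 38.61 TPM. Kif18a, which shortens kinetochore microtubules and keeps chromosomes aligned, had 23.54 and 31.21 TPM. Kif18b, its relative at astral microtubule ends, was lower than Kif18a in both libraries, at 8.36 and 8.02 TPM.

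The motors of the midzone and of cell separation covered a wide range. Kif20a, also called MKLP2, brings the chromosomal passenger complex to the midzone and had 57.23 TPM in replicate 1 and 66.98 TPM in replicate 2. Kif23, the MKLP1 subunit of centralspindlin, had 29.38 and 35.48 TPM, and Kif4, the chromokinesin that works with Prc1 at the midzone, had 18.88 and 23.07 TPM. Kif20b, which acts in late cytokinesis, had 13.13 and 16.42 TPM. Kif14, which places citron kinase at the midbody, was the lowest mitotic gene in both libraries, at 4.38 and 5.75 TPM.

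Ordered by mean level, 24 of 37 pairs of neighbouring kinesins kept their order in both libraries, and in 11 the means differed by more than the sum of their SDs. Kif22 stood clear of Kif20a by that measure. Kif20a and Kif11, Kif11 and Kif5b, Kif2c and Kif23, and Kif15 and Kif20b did not differ beyond their spread. Of these pairs, Kif20a still stood above Kif11 and Kif2c above Kif23 in each library. Kif11 and Kif5b, and Kif15 and Kif20b, changed order between the libraries, so their rank is not set by these 2 libraries.

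Most of the transport kinesin level came from 1 gene. Kif5b (chromosome 18, 6201002 to 6242174), the conventional kinesin heavy chain found in most cell types, had 49.31 TPM in replicate 1 and 50.68 TPM in replicate 2, from 6070 and 5737 counts. It held 66.8% and 64.8% of the TPM of all 13 transport kinesins and lay at the 90.5 and 89.9 percentile of protein-coding genes. Its partner Klc1, the light chain through which cargo is bound, had 20.38 and 21.53 TPM, so that the log2 ratio of Kif5b over Klc1 was 1.25 ± 0.03 (SD, n = 2). With counts divided by the length of the longest coding transcript, the same ratio was 0.63. The other light chains were lower than Klc1, with Klc4 at 5.21 and 5.11 TPM, Klc2 at 2.12 and 2.60 TPM and Klc3 at 0.80 and 0.29 TPM.

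Kinesin-2, a motor of Kif3a, Kif3b and the accessory protein Kifap3 that carries intraflagellar transport trains and other cargo, came next. Kif3a had 11.53 and 11.80 TPM, Kif3b 1.59 and 1.96 TPM, and Kifap3 3.01 and 3.53 TPM. Levels of the 3 subunits were thus unequal, with log2 ratios of 2.72 ± 0.19 for Kif3a over Kif3b and 1.84 ± 0.14 for Kif3a over Kifap3 (SD, n = 2). Per length of the longest coding transcript these ratios were 1.87 and 1.01, so the order held while the gap narrowed.

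The broadly known vesicle motors were detected at low levels. Kif1b, which carries mitochondria and vesicles, had 4.66 and 6.05 TPM. Kif16b, an early endosome motor, had 2.15 and 2.92 TPM. Kif13a, which carries cargo of the trans-Golgi network, had 1.30 and 1.47 TPM. These 3 genes stood above 1 TPM in both libraries. Kif13b, which binds phosphoinositide-rich vesicles, lay at the threshold with 0.89 and 1.05 TPM, and Kif1c, a motor of Golgi and vesicle traffic, was below it with 0.66 and 0.52 TPM.

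The 5 transport kinesins known chiefly from neurons were all below 1 TPM in both libraries. Kif3c, a partner of Kif3a in neurons, had 0.72 and 0.95 TPM, and Kif1a, the motor of synaptic vesicle precursors, had 0.55 and 0.31 TPM. Kif17, a dendritic motor, had 0.21 and 0.29 TPM, and Kif5c, a neuronal conventional kinesin, 0.17 and 0.18 TPM. In Kif1a, the transcript Kif1a-206 of 528 nt held 58.2% and 48.4% of the TPM. Per length of the longest coding transcript Kif1a stood at 0.163 and 0.144. That was below Kif17, at 0.206 and 0.271, and Kif5c, at 0.210 and 0.226. Kif5a, another neuronal heavy chain, rested on 22 and 4 counts, or 0.09 and 0.02 TPM. Of 15 neuron markers, 4 were above 1 TPM in each library, 10 were under it in each and none was at 0, with summed levels of 16.17 and 14.01 TPM. The highest by the mean of both libraries, Gap43, had 4.88 and 4.52 TPM, Stmn2 had 5.04 and 2.62 TPM, and Tubb3 had 1.73 and 1.30 TPM. Their part in the levels of the neuronal kinesins was not tested.

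Among the regulators of microtubule length, Kif2a, a depolymerase of spindle poles and of growing neurites, was the highest, with 24.93 and 20.00 TPM. Per length of the longest coding transcript it stood at 12.5 and 12.4. Kif21a had 1.58 and 1.79 TPM and Kif21b 0.95 and 1.07 TPM; both are known to slow microtubule growth. Kif2b, a depolymerase described in human mitotic cells, had 0 counts in both libraries. A count of 0 allows up to 3 counts, which for Kif2b is 0.0369 TPM in replicate 1 and 0.0411 TPM in replicate 2.

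Cilia and Hedgehog kinesins were low apart from 1 gene. Kif24, a depolymerase that restrains the growth of primary cilia in cycling cells, had 5.14 and 6.21 TPM. Kif7, the regulator of Gli factors at the ciliary tip, had 0.31 and 0.36 TPM. Motile cilia genes lay lower still, with Kif9 at 0.22 and 0.21 TPM and Kif6 at 0.09 and 0.32 TPM from 5 and 12 counts. Kif19a, which sets the length of motile cilia, had 4 and 6 counts, and Kif27 had 5 in each library. Of 6 measured motile cilia markers, Foxj1 alone exceeded 1 TPM in both libraries, at 1.01 and 1.11 TPM, Dnah9 was listed at 0 TPM in both, and the summed levels were 1.25 and 1.44 TPM.

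Of the genes without a class, Kif12, linked in humans to cholestatic liver disease, had 4.49 and 4.48 TPM. Kif26a had 0.15 and 0.12 TPM and Kif26b 0.09 and 0.18 TPM. Kif28 had 1 count in replicate 1 and 0 in replicate 2. In all, 4 kinesins, Kif19a, Kif27, Kif28 and Kif2b, had fewer than 10 counts in each library.

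Kinesins whose names fall outside the Kif and number pattern were measured alongside. Cenpe, the kinetochore motor that brings chromosomes to the metaphase plate, had 18.29 and 22.87 TPM. Kifc1, a minus-end motor that focuses spindle poles, had 6.31 and 6.73 TPM. Kifc3 had 2.58 and 3.26 TPM, Kifc5b 1.51 and 1.48 TPM, and Kifc2 0.66 and 0.59 TPM. Expected counts of Kifc1 and Kifc5b were fractional, 419.42 and 144.58 in replicate 1 and 448.72 and 127.28 in replicate 2. In each library they add to a whole number, so reads were divided between Kifc1 and Kifc5b. Their levels are therefore not independent measurements.

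The genes that work with the mitotic kinesins had a higher median level than the kinesins themselves. All 27 genes of the spindle partner list exceeded 1 TPM in both libraries, and their median was 64.1 ± 7.13 TPM, beside 27.4 ± 5.42 TPM for the 11 mitotic kinesins (SD, n = 2 each). The highest were Birc5, the survivin subunit of the chromosomal passenger complex, at 379 ± 17.9 TPM, the mitotic kinase Cdk1 at 305 ± 0.113 TPM and its cyclin Ccnb1 at 257 ± 12.4 TPM. Genes of DNA replication and proliferation stood higher, with all 12 above 1 TPM and a median of 199 ± 21.7 TPM, led by Rrm2, Pcna and Mcm6.

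Direct partners were compared within each library. Kif23 was below Racgap1, the other subunit of centralspindlin, which had 62.21 and 72.15 TPM, at a log2 ratio of -1.05 ± 0.04. Kif4 was below Prc1, the midzone bundler, which had 86.38 and 100.16 TPM, at -2.16 ± 0.05. Both differences exceeded the spread between the libraries. Kif11 was slightly below its spindle partner Tpx2 at -0.22 ± 0.03 (SD, n = 2 each), but per length of the longest coding transcript the sign turned, to 0.12.

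Cargo adaptors of the transport kinesins spanned a wide range. Of 18 listed adaptors and small GTPases, 13 were above 1 TPM in each library and 4 under it in each, with a median of 7.25 ± 0.0530 TPM (SD, n = 2). Trak2, which links conventional kinesin to mitochondria, had 37.67 and 52.93 TPM. Rab6a, a Golgi GTPase, had 37.34 and 42.40 TPM, and Arl8b, which couples lysosomes to kinesin, had 33.89 and 45.11 TPM. By TPM these 3 adaptors lay near the level of Kif5b, and the median adaptor lay above the median transport kinesin. Per length of the longest coding transcript Kif5b stood at 33.7 and 35.2, and the adaptors were not compared on that scale.

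Transcript estimates were examined for the 25 kinesins with a mean of at least 100 counts. A single annotated transcript existed for 9 of them, including Kif11, Kif22, Kif23, Kif15 and Kif20b. Of the 16 with several, 15 had the same leading transcript in both libraries. In 18 of the 25, at least 90% of the TPM was in transcripts annotated as coding, and in 4, Kif1b, Kif24, Kif2a and Kif3a, the leading transcript held less than 50%.

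In the transport genes with the highest levels no transcript held most of both TPM and counts. Kif5b-202, of 2006 nt, held 59.2% ± 0.111 of the Kif5b TPM, while Kif5b-201, of 6032 nt, held 36.0% ± 0.943 of the TPM but 64.9% of the counts. Kif3a-201 held 40.9% ± 7.47 of its gene's TPM, and Kif3a-206, annotated for nonsense-mediated decay, held 32.6% ± 0.392 (SD, n = 2 each). Kif1b-201 held 40.2% of the TPM of Kif1b, and the retained-intron transcript Kif1b-205 held 27.6%.

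Short transcripts weigh heavily in TPM. In Kif2a, Kif2a-205 of only 288 nt held 53.4% of the TPM in replicate 1 and 37.4% in replicate 2, and Kif2a-201 of 5304 nt held 32.5% and 39.7%, although it had 79.9% of the counts on average. The levels of Kif2a, Kif3a and Kif5b therefore depend on how reads were divided among transcripts. With counts divided by the longest coding length, Kif5b stood at 33.7 and 35.2 and lay below Kif2c, at 38.8 and 46.9, and Kif23, at 36.7 and 43.9 on the same scale, and in replicate 2 also below Kif18a, at 37.9. On that scale Kif3a stood at 7.60 and 8.53, and Kif22 was again the highest, at 115 and 124.

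Of the mitotic genes with several transcripts, 3 had a leading share over 90%. Kif2c-201 held 96.1% of the Kif2c TPM, Kif18a-201 held 93.2% and Kif4-201 held 93.1%. Kif18b-201 held 84.2% ± 9.19, and in Kif14 the coding Kif14-203 held 70.1% ± 0.973, with the retained-intron transcript Kif14-202 at 29.9% (SD, n = 2 each). Kif20a had 2 coding transcripts, Kif20a-202 with 59.9% ± 2.29 and Kif20a-201 with 40.1%.

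**Figure D4:**
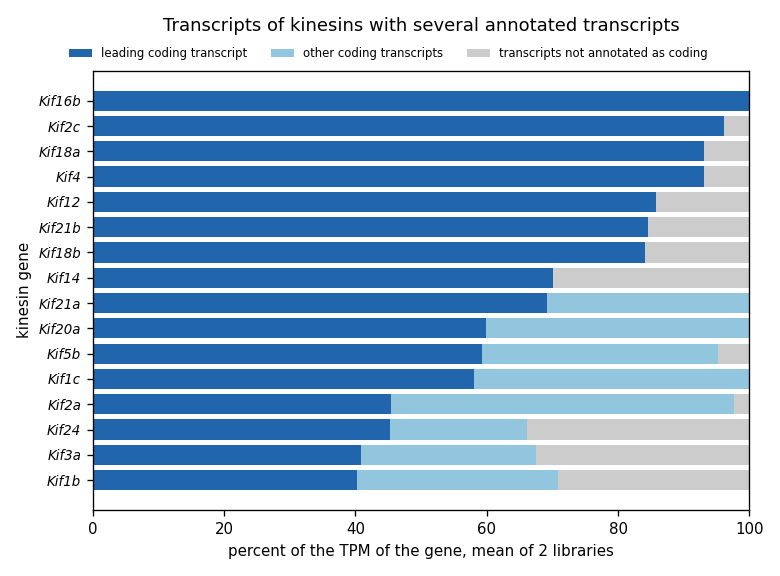
Percent of each gene's TPM, mean of the 2 libraries, in the leading coding transcript (dark), in other coding transcripts (pale) and in transcripts not annotated as coding (grey), for the 16 kinesins with several transcripts and a mean of at least 100 counts. In Kif16b 1 transcript held the whole level, and in the others the leading share runs from 96.1% in Kif2c to 40.2% in Kif1b.

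Neighbouring genes can share reads with kinesins. Of the 38, 12 share exon bases with another annotated gene, 11 of them over at least 50 nt, and it was not stated whether strand was used in counting. Kif20a and Cdc23 overlap on opposite strands over 1271 nt, and Cdc23 had 42.2 and 48.22 TPM. Kif4 and Pdzd11 overlap over 832 nt, Kif2a and Dimt1 over 1229 nt, and Kif3c and the antisense gene 1110002L01Rik over 2617 nt. Expected counts of Kif20a and Cdc23 were 7513.24 and 4824.76 in replicate 1 and 7897.33 and 5019.67 in replicate 2. Those of Kif4 and Pdzd11 were 3284.5 and 2471.5, then 3592.76 and 2267.24. In each library either pair adds to a whole number, so some reads were divided between these genes although they lie on opposite strands. For Kif2a with Dimt1 and Kif3c with 1110002L01Rik the sums were not whole. The posterior SD of the authors' model in replicate 1 was 21.0 counts for Kif20a and 12.1 for Kif4, small beside their totals, and 8.60 for Kif3c on a total of 184. The pseudogenes Kif22-ps and Kif4-ps had 0 counts in both libraries.

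The libraries were then compared kinesin by kinesin, as log2 of expected counts in replicate 2 over replicate 1 with TMM scaling, for the 33 kinesins with a mean of at least 10 counts. The mitotic median was 0.13, with 9 of 11 genes above 0 and a range of -0.04 to 0.26. The transport median was 0.03, with 8 of 13 genes above 0. The median of 14027 protein-coding genes was 0.00, with 50.7% above 0. Spike-in scaling moved every ratio by the same -0.64 and placed the median of all genes at -0.63. The signs turned, with a mitotic median of -0.51 and a transport median of -0.61. As the shift is common to every gene, the place of these medians relative to all genes could not change.

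With TMM scaling 0 of 11 mitotic genes differed by more than 1.2-fold. With total counts 3 of 11, Kif11, Kif14 and Kif18a, were higher in replicate 2 past 1.2-fold, beside 17.9% of protein-coding genes, and by TPM 7 of 11, beside 30.9%. With spike-in scaling all 11 were lower past 1.2-fold, beside 94.1%. With TMM scaling and past 1.2-fold, 1 of the 33 kinesins was higher in replicate 2, beside 11.5% of protein-coding genes, and 4 were lower, beside 12.4%. The higher count was 7 with total counts, beside 17.9% of protein-coding genes, 14 by TPM, beside 30.9%, and 0 with spike-ins, beside 0.98%. The lower count was 2 with total counts, beside 8.97%, 5 by TPM, beside 7.20%, and 33 with spike-ins, beside 94.1%. The higher gene was Kif16b, with 624 counts in replicate 2 and 512 in replicate 1, at 1.22-fold (1.08 to 1.37). The lower genes were Kif1c, Kif1a, Kif26a and Kif5a, of which Kif5a had 4 counts in replicate 2 and 22 in replicate 1, at 0.200-fold (0.0455 to 0.535). Among kinesins with at least 100 counts in both libraries Kif2a had the lowest ratio, at 0.899-fold (0.843 to 0.959), and Kif5b stood at 0.945-fold (0.911 to 0.980). Among mitotic genes Kif18a had the highest ratio, at 1.19-fold (1.14 to 1.26), and Kif22 the lowest, at 0.976-fold (0.943 to 1.01). Intervals cover counting error only.

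Partners of the mitotic kinesins had a median log2 ratio of 0.12 with TMM scaling, 21 of the 27 in the spindle partner list being above 0, whereas spike-in scaling shifts every ratio by -0.64. The replication and proliferation list had a median of 0.03, with 7 of 12 above 0. The cardiac markers had a median of 2.48, with 7 of 7 above 0, and their part in the differences between the libraries was not tested.

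**Figure D5:**
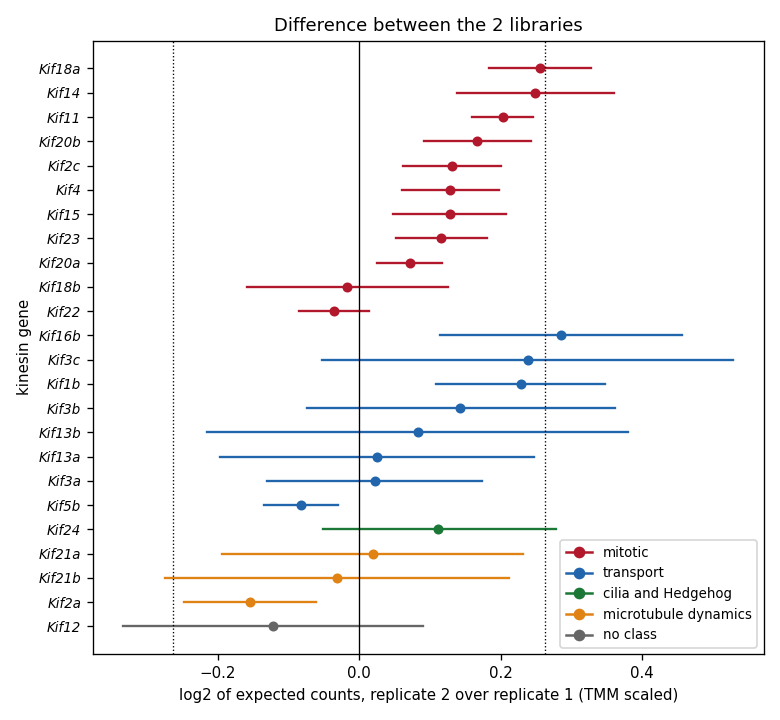
Log2 ratio of expected counts, replicate 2 over replicate 1 with TMM scaling, for the 24 kinesins with at least 100 counts in both libraries, with bars for the exact 95% counting interval and dotted lines at 1.2-fold; classes run from mitotic at the top to no class at the bottom. Of the 11 mitotic points 9 lie right of 0, whereas with spike-in scaling all shown would lie left of it.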

How the data were processed

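The deposited tables hold values per gene and per transcript for 1 library each, with reads assigned to build mm10 with GENCODE release M4, per the deposited readme. The expected counts are deposited estimates in which a model divided reads that fit several features, per the file headers. TPM and FPKM columns were computed by the authors per library, per the file headers, and FPKM gave no printed value. The name of the aligner, that of the quantification tool and any use of strand were not given in the sources used here. Symbols and coordinates came from GENCODE release M21 by gene ID, for 42462 of 43346 genes.

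Members, classes and lists were chosen with earlier results of these data known, and motif choices likewise. Named genes were all kinesins, the 3 highest of other lists, the listed partners and genes overlapping kinesins. Klc2, Klc3, Dnah9, Dync1h1, Dync1i1, Dync1i2 and Ift88 were named in addition, outside this rule. Values were given per library with the mean and SD over n = 2. Class medians used log2(TPM + 0.1). A gene counted as present at 1 TPM or more in both libraries. Ratios between replicates used expected counts plus 0.5 with TMM factors from edgeR 4.0.16, for genes with a mean of at least 10 counts, and DESeq2 1.42.0 size factors as an alternative, with counts rounded, in R 4.3.3. Scaling and ratios were tested on simulated negative binomial data for 15997 genes, 200 of them changed. True log2 ratios of -2, -0.5, 0.5 and 2 for replicate 2 over replicate 1 were recovered as -2.03, -0.48, 0.50 and 2.00. The simulation raised as many genes as it lowered and held no shift common to all genes. It therefore cannot decide between TMM and spike-in scaling. A ratio of 2 counts has an exact 95% binomial interval. Neither it nor the floor of 3 counts covers more than counting error, as reads need not be independent molecules. Precision therefore falls with the count. Promoters came from the RefSeq table of build GRCm38.p6, and no protein sequences were used here. The remaining steps ran in Python 3.11.15, with pandas 2.3.3 and numpy 2.4.6 for tables, scipy 1.17.1 for intervals and matplotlib 3.10.9 for plots. Alternatives covered the pseudocount, the class lists, counts in place of TPM, posterior mean TPM, the scaling, the count minimum and each replicate alone. Those with the longest coding transcript, with the first start site, with the counts per scaling of mitotic genes and with TPM for the 1.2-fold count were chosen after seeing the data.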

Additional observations from a re-analysis of the deposited data

How the results depend on the processing

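No paired analysis was possible because the series has 1 group. The mitotic minus transport median of 4.67 (log2) became 3.84 with a pseudocount of 1, 4.07 with counts not corrected for length, 4.46 with Kif2a and Kif2b counted as mitotic and 3.62 with the broadly known transport kinesins only, and lay between 4.58 and 4.77 for single replicates. The mitotic share of kinesin TPM, 76.6%, became 81.3% with Kif2a and Kif2b and 84.4% per length of the longest coding transcript, and lay between 75.1% and 78.0% for single replicates. The median leading transcript share of the 25 kinesins with a mean of at least 100 counts, 93.1%, was 98.3% by counts and between 92.7% and 92.9% for single replicates. With spike-in scaling the median ratio of replicate 2 over replicate 1 turned to -0.57 for all kinesins, -0.51 for mitotic and -0.61 for transport ones, and to -0.35 for Kif16b, where all protein-coding genes shifted by -0.64. By TPM the mitotic median was 0.28, where the median of all genes was 0.15. Members past 1.2-fold higher in replicate 2, 1 in the values given, were 7 with total counts, 0 with spike-ins and 14 by TPM, and those lower, 4, were 2 with total counts, 33 with spike-ins and, with a mean count of at least 100, 1. Per length of the longest coding transcript the partner ratios were 1.87 for Kif3a/Kif3b, 1.01 for Kif3a/Kifap3, -0.90 for Kif23/Racgap1, -2.08 for Kif4/Prc1, 0.12 for Kif11/Tpx2 and 0.63 for Kif5b/Klc1, and with posterior mean TPM the last was 1.19. With first start sites only, CHR matches in transport kinesins became 0, where any start gave 1. The cause of these changes was not tested. Of the other alternatives to these results, 61 stayed within the spread between replicates or within 1.5 times the count. Depth limits the 4 kinesins under 10 counts in each library and ratios of genes with few counts, such as Kif5a and Kif6.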

Other observations

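Cytoplasmic dynein, the motor that moves cargo opposite to most kinesins, and its cofactor dynactin were present almost throughout. Of 18 listed subunits and regulators, 17 were above 1 TPM in each library, and the median was 33.3 ± 4.81 TPM (SD, n = 2). The highest were the light chain genes Dynll1 at 678 ± 12.5 TPM and Dynlrb1 at 133 ± 1.2 TPM, and the dynactin subunit Dctn6 at 81.6 ± 1.37 TPM. The heavy chain Dync1h1 had 12.38 and 10.01 TPM, from 1839 and 1646 counts. How reads were divided among transcripts was not examined for the dynein and dynactin genes. Of the intermediate chains, Dync1i2, found in most tissues, had 27.85 and 37.56 TPM, and Dync1i1, known chiefly from neurons, had 0.10 and 0.13 TPM.

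Intraflagellar transport genes, whose proteins form the trains that kinesin-2 carries along cilia, were above 1 TPM in each library, 12 of 12, and had a median of 5.55 ± 0.824 TPM. Their levels were unequal. Ift140 stood at 86.9 ± 3.58 TPM, Ift20 at 77.0 ± 3.26 TPM and Ift27 at 37.3 ± 0.0141 TPM, while Ift88 had 1.54 and 1.44 TPM (SD, n = 2 each). For these genes too, the division of reads among transcripts was not examined.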
